A study of Mus musculus with 11 samples.

Results

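The genes of the Rag, Ragulator and GATOR nutrient-sensing system were followed in GL261 mouse gliomas and in the microglia sorted from such tumours. The 33 genes were taken by symbol as the known parts of amino acid and energy sensing upstream of mTORC1, a rule that uses no measured value, and all 33 were found among the 50686 gene identifiers of the count tables. They comprise 4 Rag GTPases, 5 Ragulator subunits, 3 GATOR1 subunits, 5 GATOR2 subunits, 3 sestrins, 3 genes of the folliculin complex, the arginine transceptor Slc38a9, 2 KICSTOR subunits, 6 AMPK subunits and Stk11, which encodes the kinase LKB1.

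mTORC1 is the kinase complex that couples growth to nutrient supply at the surface of the lysosome. When amino acids are plentiful, dimers of Rag GTPases, anchored on the lysosome by Ragulator, bring mTORC1 to the GTPase Rheb, which switches it on, while GATOR1 holds the Rags off and is itself held in check by GATOR2. Sestrins and Slc38a9 report leucine and arginine to this machinery, and LKB1 and AMPK restrain mTORC1 when cellular energy falls.

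The series asked what loss of Rheb1 (gene symbol Rheb) in Cx3cr1-expressing tumour-associated macrophages does to the tumour, and holds 11 RNA-seq libraries. GL261, a mouse glioma cell line, was injected into the brain of C57BL/6 mice at 6 weeks of age, 3 weeks after tamoxifen, and samples were taken 3 weeks after tumour initiation. Rheb1 KO mice carried floxed Rheb1 and a tamoxifen-inducible Cre under Cx3cr1 (Cx3cr1-Rheb1 Δ/Δ in the study), while the mice labelled WT carried floxed Rheb1 and no Cre (Rheb1 fl/fl), so both genotypes shared the floxed allele, the graft and the tamoxifen. The Cre sits in the Cx3cr1 locus, so it acts in cells that express Cx3cr1, microglia among them, and the grafted tumour cells carry neither allele. Only the Rheb1 KO mice carried the Cre, so its presence and the loss of Rheb1 cannot be told apart. The groups were TAM-MG from 3 Rheb1 KO and 2 WT mice, sorted as live CD11b+ CD45low cells (tumour-associated microglia), and bulk tumour scraped from fixed, paraffin-embedded sections of 3 Rheb1 KO and 3 WT mice. Replicates carry different mouse numbers, and nothing in the labels pairs mice of the 2 genotypes or TAM-MG with bulk.

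Total counts ran from 20765767 to 29947977 in TAM-MG and from 14940787 to 21991348 in bulk. Counts per 1000000 (CPM) below are scaled over all 11 libraries by TMM, and levels of different genes are compared only as deposited TPM, which corrects for length. Rheb itself had 84.7, 89.2 and 89.5 CPM in Rheb1 KO TAM-MG, against 103 and 204 CPM in WT TAM-MG, and 190, 105 and 121 CPM in Rheb1 KO bulk, against 286, 196 and 272 CPM in WT bulk. The genotypes did not overlap in either experiment (log2 fold change −0.85, SE 0.34, adjusted p = 0.552 in TAM-MG, and −0.88, SE 0.32, adjusted p = 0.426 in bulk, edgeR). In the study only an exon of Rheb1 is floxed, while these counts cover the whole gene, so they do not measure the deletion itself. Bulk also holds grafted tumour cells, in which the Cre does not act. All 16 microglia markers were higher in TAM-MG than in bulk, by a median of 6.00 on the log2 scale. All 9 neuron, 6 astrocyte and 6 oligodendrocyte markers had negative fold changes. Of these, 9, 5 and 4 were lower in TAM-MG at an adjusted p under 0.05 (edgeR) and at least a 1.5-fold change. In bulk, the summed level of the 16 microglia markers was 279 to 627 CPM in Rheb1 KO, against 959 to 1448 CPM in WT, with 16 of 16 markers at a negative fold change. None of the 16 was at 0 in a whole bulk group. Monocyte and macrophage markers, 8 of 10 of them negative, summed to 64.6 to 190 CPM in Rheb1 KO bulk, against 439 to 809 CPM in WT bulk. In bulk tissue, fewer cells of a type and less RNA per cell cannot be told apart. TAM-MG and bulk differ in cell content and in preparation (sorted fresh cells against fixed tissue), which also cannot be told apart.

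Of the 33 genes, 10 were higher and 9 lower in TAM-MG than in bulk at an adjusted p under 0.05 and at least a 1.5-fold change, which is 57.6% of them, against 52.9% of the 21342 genes tested (20.5% higher and 32.4% lower). The share called among the 33 was thus near that of all genes. CPM values did not overlap between TAM-MG and bulk for 13 of the 33, against 34.8% of all genes (14.6% higher and 20.2% lower). The median log2 fold change of the 33 was 0.46, against −0.89 over all genes, and with library sizes alone these medians were −0.18 and −1.45. Where each library had to hold at least 10 counts they were 0.44 and −0.02, and with limma on log2(TPM + 1) 0.02 and −0.39. The gap between the medians thus varied with the filter and the measure. The genes that were higher included 4 Ragulator subunits, Sec13, Sesn1, Flcn, Stk11 and the AMPK subunits Prkab1 and Prkag1, and those that were lower included the paralogues Prkaa2, Prkab2, Rragb, Rragd and Sesn3.

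**Figure D1:**
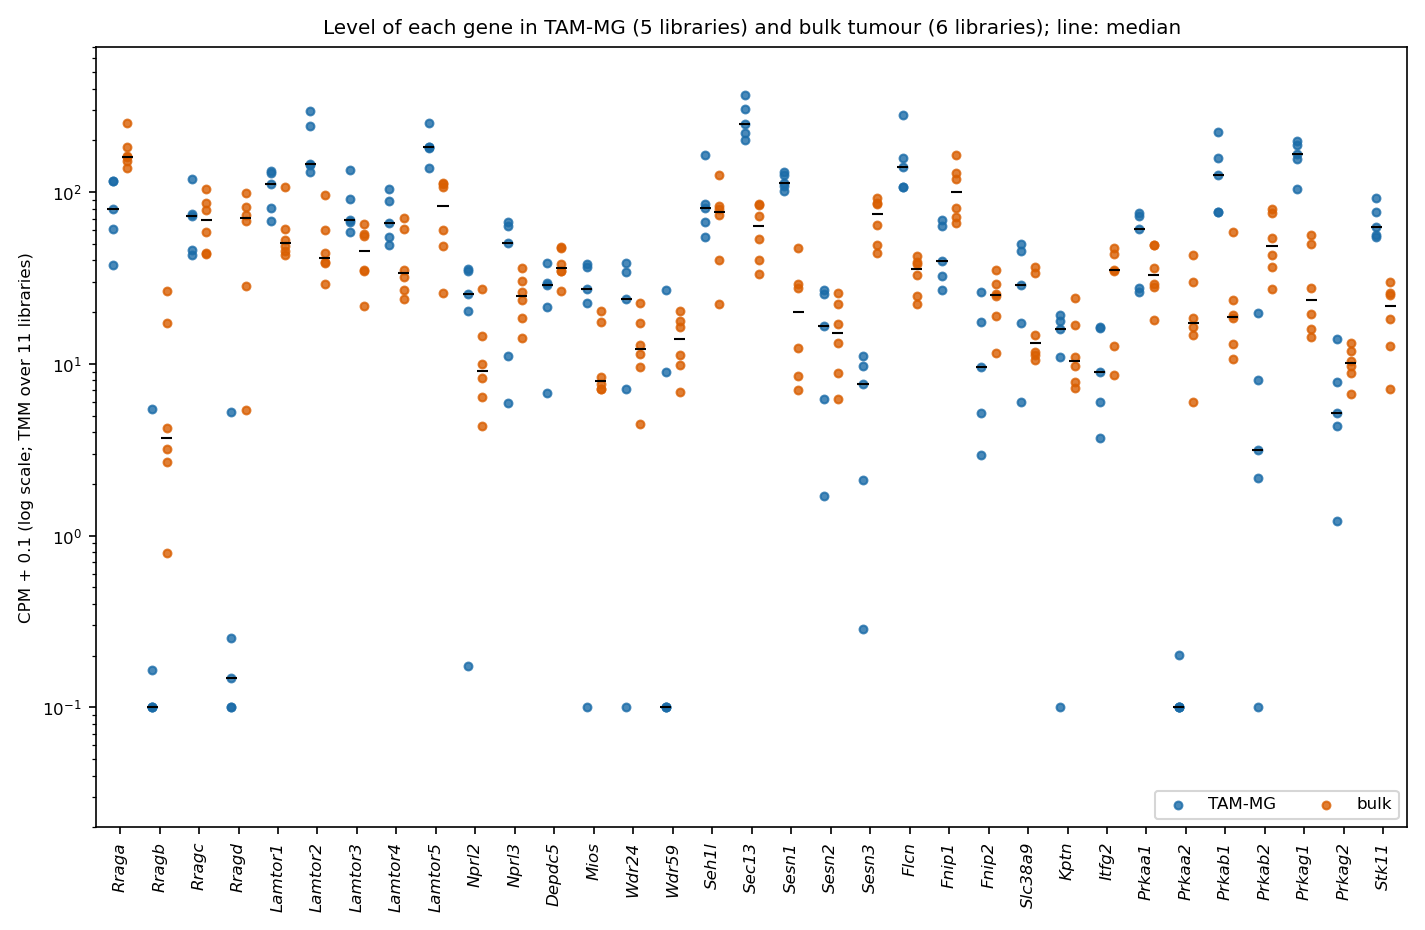
CPM (plus 0.1, log axis) of the 33 genes in each of 5 TAM-MG and 6 bulk libraries, with the median as a line. Lamtor2, Lamtor5, Sec13, Sesn1, Flcn, Prkab1, Prkag1 and Stk11 lie higher in every TAM-MG library than in any bulk library, and Rraga, Prkaa2, Rragd, Sesn3 and Prkab2 lie lower.

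The Rag GTPases work as a pair, an A-type subunit (RagA or RagB) with a C-type subunit (RagC or RagD). In TAM-MG the RNA of each type was almost wholly Rraga and Rragc, and for Rraga this held in bulk as well. The proteins and their pairing were not measured. Rraga made up a median of 100% of the summed TPM of Rraga and Rragb in TAM-MG and 99.0% in bulk. Rragc made up a median of 99.6% of the summed TPM of Rragc and Rragd in TAM-MG (96.1% to 99.9%), against 89.8% in bulk (59.0% to 97.8%). These bulk shares do not follow the counts, which are not corrected for length. In WT bulk replicate 110, where Rragc took 97.8%, it had 1521 counts and Rragd 1909. In Rheb1 KO bulk replicate 36, where Rragc took 96.4%, it had 1955 counts and Rragd 1523.

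Rraga was the second most abundant of the 33 genes in bulk (median 95.3 TPM) and ranked 9 in TAM-MG (62.6 TPM). It had 37.5, 115 and 60.9 CPM in Rheb1 KO TAM-MG and 79.7 and 116 CPM in WT TAM-MG, against 253, 184 and 152 CPM in Rheb1 KO bulk and 139, 160 and 162 CPM in WT bulk. No TAM-MG library reached the lowest bulk library (log2 fold change −1.06, SE 0.31, adjusted p = 0.0163), and the call was lost without WT TAM-MG replicate 74 (adjusted p = 0.0511) and within WT libraries (−0.73, adjusted p = 0.119). Rragc was not called by edgeR or any alternative (log2 fold change −0.0003, SE 0.34), with 43.0 to 119 CPM in TAM-MG and 43.3 to 105 CPM in bulk.

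Rragb had 0, 5.33 and 0 CPM in Rheb1 KO TAM-MG and 0 and 0.0641 CPM in WT TAM-MG, against 26.6, 0.696 and 3.09 CPM in Rheb1 KO bulk and 4.15, 2.58 and 17.2 CPM in WT bulk. A single TAM-MG library thus held 109 of its 110 TAM-MG counts, and the pooled level was 7.41-fold lower in TAM-MG (95% counting interval 6.08 to 9.10, exact, counting error only). The fitted difference (adjusted p = 0.0476) lost its call in 7 of the 11 fits that left out a library, with adjusted p between 0.00421 and 0.157, and also within Rheb1 KO libraries (−2.54, adjusted p = 0.418) and with limma on TPM (adjusted p = 0.32 and 0.129). Rragd had 0, 0.0489 and 0.154 CPM in Rheb1 KO TAM-MG and 0 and 5.13 CPM in WT TAM-MG, against 73.8, 81.5 and 5.31 CPM in Rheb1 KO bulk and 28.1, 68.0 and 98.3 CPM in WT bulk. Its pooled level was 68.4-fold lower in TAM-MG (interval 55.1 to 85.8) and the groups did not overlap in CPM (adjusted p = 0.0022 by edgeR), although the call was lost within WT libraries (−4.75, adjusted p = 0.0943). By TPM the groups of Rragd overlapped, up to 0.929 in TAM-MG and from 0.636 in bulk. Of its 84 TAM-MG counts, 80 came from WT replicate 78, and without it the fitted log2 fold change was −11.55 in place of −7.08. In WT bulk replicate 110, Rragd had 1909 counts but 0.636 TPM, so its counts and its deposited TPM rank the libraries differently.

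The promoters shown are the 5 that hold CACGTG, those of 4 Rag and Ragulator genes and of Fnip1. TFEB and TFE3 are transcription factors of lysosomal genes that the Rags themselves control. The CACGTG motif, which reads the same on both strands and is the core of the element those factors bind, was sought in the 300 bases from 250 before to 50 after each start in RefSeq (GRCm38.p6). Promoters were matched for 30 of the 33 genes, and 5 of their 33 promoters held the motif, against 7.15% of 32817 promoters of the same length. CACGTG contains a CpG, and the promoters of the 33 were richer in CpG and in G and C than all promoters (medians of 22 CpG and 61.3% G and C, against 7 CpG and 52.7%). The longer TCACGTGA, which contains CACGTG, was in 0 of the 33, against 0.98% of all promoters. These are matches of letters and no measure of binding. The 5 promoters are given 5′ to 3′ on the strand of the gene, with each CACGTG in capitals.
Rragb (chrX:153139708-153140007, plus strand): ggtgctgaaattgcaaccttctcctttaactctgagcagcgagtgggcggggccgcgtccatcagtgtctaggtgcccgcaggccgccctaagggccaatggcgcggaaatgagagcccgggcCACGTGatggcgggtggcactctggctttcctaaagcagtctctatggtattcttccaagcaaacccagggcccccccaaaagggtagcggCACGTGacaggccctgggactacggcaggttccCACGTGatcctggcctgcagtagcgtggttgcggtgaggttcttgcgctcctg
Rragc (chr4:123917183-123917482, plus strand): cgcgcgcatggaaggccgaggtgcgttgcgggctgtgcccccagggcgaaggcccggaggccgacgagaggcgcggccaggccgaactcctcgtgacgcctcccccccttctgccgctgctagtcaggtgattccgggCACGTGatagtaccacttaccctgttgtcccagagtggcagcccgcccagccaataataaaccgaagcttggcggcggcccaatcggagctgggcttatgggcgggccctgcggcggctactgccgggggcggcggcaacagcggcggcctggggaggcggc
Lamtor1 (chr7:101905587-101905886, plus strand): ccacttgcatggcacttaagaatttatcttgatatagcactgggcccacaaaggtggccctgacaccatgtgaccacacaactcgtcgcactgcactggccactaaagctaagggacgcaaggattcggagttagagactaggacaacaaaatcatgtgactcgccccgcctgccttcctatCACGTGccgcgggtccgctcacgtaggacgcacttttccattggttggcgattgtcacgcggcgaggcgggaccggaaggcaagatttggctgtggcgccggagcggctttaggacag
Lamtor4 (chr5:138255232-138255531, plus strand): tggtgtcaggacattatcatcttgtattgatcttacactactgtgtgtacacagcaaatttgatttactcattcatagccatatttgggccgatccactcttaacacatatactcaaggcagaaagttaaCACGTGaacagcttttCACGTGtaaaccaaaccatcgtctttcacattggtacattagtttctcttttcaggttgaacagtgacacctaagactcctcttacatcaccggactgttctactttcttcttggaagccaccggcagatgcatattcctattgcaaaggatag
Fnip1 (chr11:54437929-54438228, plus strand): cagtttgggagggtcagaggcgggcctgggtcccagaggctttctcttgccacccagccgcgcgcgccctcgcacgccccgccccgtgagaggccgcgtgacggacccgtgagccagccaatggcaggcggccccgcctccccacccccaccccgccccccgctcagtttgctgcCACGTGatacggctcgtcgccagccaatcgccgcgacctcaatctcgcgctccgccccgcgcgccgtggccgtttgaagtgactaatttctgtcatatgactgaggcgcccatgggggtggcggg

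Ragulator, the pentamer that holds the Rags on the lysosome, held the most abundant of the 33 genes. Lamtor2 (p14) and Lamtor5 (HBXIP) ranked 1 and 2 of the 33 in TAM-MG, with medians of 356 and 240 TPM, and Lamtor5 ranked 1 in bulk with 106 TPM. All 5 subunits had a positive log2 fold change for TAM-MG over bulk, 0.79 to 1.99, and stayed positive under each alternative test, scaling and filter that was run, the lowest being 0.20 with library sizes alone. Lamtor2 had 130.0, 146 and 244 CPM in Rheb1 KO TAM-MG and 143 and 295 CPM in WT TAM-MG, against 29.1, 38.5 and 44.0 CPM in Rheb1 KO bulk and 59.7, 38.9 and 96.3 CPM in WT bulk. Every TAM-MG library exceeded every bulk library (log2 fold change 1.99, SE 0.33, adjusted p = 0.00059). Lamtor5 had 138, 179.9 and 182.9 CPM in Rheb1 KO TAM-MG and 184 and 254 CPM in WT TAM-MG, against 113, 25.8 and 48.2 CPM in Rheb1 KO bulk and 106, 111 and 59.9 CPM in WT bulk. It did not overlap either (log2 fold change 1.33, SE 0.36, adjusted p = 0.0107), but the call was lost without WT TAM-MG replicate 78 (1.06, adjusted p = 0.0663), with library sizes alone (0.76, adjusted p = 0.082), within Rheb1 KO libraries (1.39, adjusted p = 0.0678) and within WT libraries (1.16, adjusted p = 0.0552).

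Lamtor1 (p18), the lipid-anchored subunit on which the complex assembles, had 132, 67.6 and 112 CPM in Rheb1 KO TAM-MG and 81.2 and 130 CPM in WT TAM-MG, against 45.3, 48.7 and 52.6 CPM in Rheb1 KO bulk and 107, 61.1 and 43.2 CPM in WT bulk. Lamtor3 (MP1), the partner of Lamtor2, had 68.3, 90.9 and 58.3 CPM in Rheb1 KO TAM-MG and 67.1 and 134 CPM in WT TAM-MG, against 35.3, 34.7 and 55.3 CPM in Rheb1 KO bulk and 57.0, 65.1 and 21.5 CPM in WT bulk. In both genes TAM-MG and bulk overlapped, and their calls (log2 fold changes 0.84 and 0.93, adjusted p = 0.0397 and 0.0448) did not last: without WT TAM-MG replicate 78 both values fell to 0.50, and over all fits that left out a library the adjusted p ran from 0.0287 to 0.269 for Lamtor1 and from 0.0619 to 0.332 for Lamtor3. Both calls were also lost with DESeq2, with library sizes alone, with either other filter and within either genotype, and that of Lamtor1 with limma on TPM. By TPM, Lamtor3 did not overlap, from 55.5 in TAM-MG and up to 50.3 in bulk, while Lamtor1 did. Exons of Lamtor1 share 18.7% of their bases with Lrrc51 on the opposite strand. The library kit does not mark strand, so reads in the shared bases cannot be told apart. Lamtor4 was not called (log2 fold change 0.79, adjusted p = 0.102).

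GATOR1, the GTPase-activating complex that switches RagA off, had 0 of 3 subunits called between TAM-MG and bulk by edgeR. Median levels in TAM-MG were 15.1 TPM for Nprl2, 9.74 TPM for Depdc5 and 4.98 TPM for Nprl3, and in bulk they were 8.09, 2.498 and 6.37 TPM. Depdc5, the scaffold subunit, had 29.5, 38.8 and 6.68 CPM in Rheb1 KO TAM-MG and 28.6 and 21.3 CPM in WT TAM-MG, against 34.5, 47.6 and 37.9 CPM in Rheb1 KO bulk and 46.9, 34.5 and 26.6 CPM in WT bulk. Its groups overlapped (log2 fold change −0.60 by edgeR), but limma on TPM called it higher in TAM-MG (1.38 and 1.72, adjusted p = 0.0286 and 0.0482). Nprl2 was called lower without WT TAM-MG replicate 78 (−2.84, adjusted p = 0.0103). The log2 fold changes of Depdc5 for genotype were −0.06 in TAM-MG and 0.13 in bulk.

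GATOR2 had its most abundant member in Sec13, which also serves the COPII coat and the nuclear pore, as does Seh1l for the pore. Sec13 had 305, 200.4 and 221 CPM in Rheb1 KO TAM-MG and 251 and 368 CPM in WT TAM-MG, against 53.5, 40.3 and 33.2 CPM in Rheb1 KO bulk and 84.0, 72.7 and 84.6 CPM in WT bulk. It was higher in every TAM-MG library (log2 fold change 2.23, SE 0.24, adjusted p = 3.3e-05), and it stayed between 1.93 and 2.21 whichever library was left out. Wdr59 was called lower in TAM-MG, but it rested on libraries at 0: it had 0, 8.86 and 26.8 CPM in Rheb1 KO TAM-MG and 0 and 0 CPM in WT TAM-MG, against 17.7, 6.798 and 11.2 CPM in Rheb1 KO bulk and 20.2, 9.74 and 16.3 CPM in WT bulk. Pooled over libraries it was 1.92-fold lower in TAM-MG (interval 1.76 to 2.10), the fitted log2 fold change within Rheb1 KO libraries was −0.03 (adjusted p = 0.99), and without WT TAM-MG replicate 74 the call was lost (adjusted p = 0.0576). Mios, Wdr24 and Seh1l were not called by edgeR. Limma on TPM called Mios higher in TAM-MG (1.66 and 2.66, adjusted p = 0.0178 and 0.0429), while edgeR called it lower without WT TAM-MG replicate 74 (−4.81, adjusted p = 0.0055) and called Wdr24 lower without WT TAM-MG replicate 78 (−5.12, adjusted p = 0.0068). Mios had 27.1, 22.5 and 36.3 CPM in Rheb1 KO TAM-MG and 38.1 and 0 CPM in WT TAM-MG, against 8.25, 7.49 and 20.1 CPM in Rheb1 KO bulk and 7.02, 17.3 and 7.01 CPM in WT bulk. It ranked last of the 33 in bulk by TPM, where its 3 WT libraries were listed at 0, 0.00607 and 0 TPM although each held 136 to 463 counts. In TAM-MG, WT replicate 78 held 0 counts of Mios and WT replicate 74 held 0 of Wdr24 and Kptn, while the other WT library held 297 or more of each. Such a gap, 0 counts in a library and at least 100 in another of the same group, affected 7.01% of all genes tested in WT TAM-MG and 6.5% in Rheb1 KO TAM-MG, against 2.9% in Rheb1 KO bulk and 2.72% in WT bulk.

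Among the sestrins, Sesn1 was higher and Sesn3 lower in TAM-MG than in bulk. Sesn1, a leucine sensor that binds and restrains GATOR2, had 101, 113 and 126 CPM in Rheb1 KO TAM-MG and 108 and 131 CPM in WT TAM-MG, against 47.0, 27.5 and 29.0 CPM in Rheb1 KO bulk and 6.98, 12.3 and 8.45 CPM in WT bulk. The 5 TAM-MG libraries lay close together and far above all bulk libraries (log2 fold change 2.71, SE 0.28, adjusted p = 3.2e-05). Within Rheb1 KO libraries the difference was 1.67 and within WT libraries 3.62 on the log2 scale, both past the threshold. Sesn3 ran the other way: it had 2.01, 7.49 and 9.66 CPM in Rheb1 KO TAM-MG and 0.185 and 10.96 CPM in WT TAM-MG, against 84.8, 86.6 and 64.3 CPM in Rheb1 KO bulk and 44.2, 48.9 and 92.7 CPM in WT bulk. The pooled level was 12.4-fold lower in TAM-MG (interval 11.3 to 13.5), with no overlap (log2 fold change −3.55, SE 0.84, adjusted p = 0.0053), and the value was −6.13 without WT TAM-MG replicate 78. Within WT libraries the call was lost (adjusted p = 0.105). Sesn2, the stress-induced sestrin, did not differ past the threshold (log2 fold change −0.03, SE 0.74). Of the summed sestrin TPM, Sesn1 took a median of 88.3% in TAM-MG and 34.4% in bulk, and Sesn3 took 1.71% in TAM-MG and 20.8% in bulk.

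The folliculin complex, which acts on RagC and RagD and thereby governs TFE3 and TFEB, was split. Flcn had 281, 107 and 158 CPM in Rheb1 KO TAM-MG and 139 and 107 CPM in WT TAM-MG, against 38.1, 22.2 and 24.8 CPM in Rheb1 KO bulk and 32.8, 39.3 and 42.3 CPM in WT bulk. It was higher in every TAM-MG library (log2 fold change 2.19, SE 0.30, adjusted p = 0.0002). Its partner Fnip1 had 32.3, 63.1 and 39.7 CPM in Rheb1 KO TAM-MG and 26.8 and 69.1 CPM in WT TAM-MG, against 129, 71.6 and 65.6 CPM in Rheb1 KO bulk and 80.7, 119 and 164 CPM in WT bulk. Fnip2 had 9.53, 25.98 and 17.4 CPM in Rheb1 KO TAM-MG and 2.85 and 5.06 CPM in WT TAM-MG, against 11.4, 18.8 and 29.1 CPM in Rheb1 KO bulk and 24.8, 25.5 and 35.2 CPM in WT bulk. Both partners overlapped between TAM-MG and bulk, and their lower level (log2 fold changes −1.16 and −1.51, adjusted p = 0.0216 and 0.0278) was no longer called without WT TAM-MG replicate 74 (−1.03 and −1.47, adjusted p = 0.0663 and 0.0741), nor with limma on TPM. Fnip1 was not called within either genotype (adjusted p = 0.0976 and 0.088). Fnip2 was not called without a filter (adjusted p = 0.0542), and within Rheb1 KO libraries it differed by −0.21 (adjusted p = 0.829).

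Slc38a9, the lysosomal transporter that signals arginine, was not called by edgeR (log2 fold change 0.48, SE 0.55), with 17.2, 45.5 and 50.1 CPM in Rheb1 KO TAM-MG and 5.88 and 28.7 CPM in WT TAM-MG, against 10.4, 36.6 and 33.6 CPM in Rheb1 KO bulk and 11.6, 14.6 and 11.2 CPM in WT bulk. Limma on TPM called it higher in TAM-MG (1.31 and 1.86, adjusted p = 0.0165 and 0.0214), and with library sizes alone the value was −0.14. The KICSTOR subunits, which tether GATOR1 to the lysosome, were not called by edgeR either. Itfg2 had 3.62, 8.86 and 16.1 CPM in Rheb1 KO TAM-MG and 5.88 and 16.2 CPM in WT TAM-MG, against 43.4, 47.2 and 35.3 CPM in Rheb1 KO bulk and 8.53, 12.6 and 34.7 CPM in WT bulk (log2 fold change −1.45, SE 0.59, adjusted p = 0.0568). It was called lower in TAM-MG with the likelihood ratio test, DESeq2, library sizes alone, at least 10 counts in each library, limma on TPM and within Rheb1 KO libraries, with log2 fold changes of −2.20 to −1.45, and on leaving out any of 4 libraries. Kptn had 10.9, 15.9 and 17.6 CPM in Rheb1 KO TAM-MG and 0 and 19.0 CPM in WT TAM-MG, against 10.9, 7.71 and 7.14 CPM in Rheb1 KO bulk and 24.2, 16.6 and 9.58 CPM in WT bulk (log2 fold change −0.02). Without WT TAM-MG replicate 78 it was called lower (−5.44, adjusted p = 0.0019).

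AMPK is a trimer of a catalytic alpha, a scaffolding beta and a nucleotide-sensing gamma subunit, each with paralogues. TAM-MG carried RNA of almost only 1 of each. Prkaa1 took a median of 100% of the alpha TPM in TAM-MG and 72.8% in bulk, Prkab1 took 97.6% of the beta TPM in TAM-MG and 42.4% in bulk, and Prkag1 took 97.5% of the 2 gamma subunits' TPM in TAM-MG and 85.8% in bulk. The beta shares in bulk include a 0% share of Prkab1 in Rheb1 KO replicate 26, where it held 177 counts and Prkab2 459. Prkaa2, the alpha 2 subunit known from muscle and neurons, had 0, 0 and 2 counts in Rheb1 KO TAM-MG and 0 and 0 in WT TAM-MG, against 722, 303 and 135 counts in Rheb1 KO bulk and 402, 390 and 580 counts in WT bulk. From 2 pooled counts against 2532, its level was 1005-fold lower in TAM-MG (exact 95% counting interval 278 to 8306, adjusted p = 0.00025 by edgeR). Prkab2 had 19.6, 0 and 7.97 CPM in Rheb1 KO TAM-MG and 3.03 and 2.05 CPM in WT TAM-MG, against 27.2, 75.6 and 42.9 CPM in Rheb1 KO bulk and 79.7, 36.5 and 53.9 CPM in WT bulk. By CPM, all TAM-MG libraries lay below all bulk libraries, and the pooled level was 8.47-fold lower (interval 7.80 to 9.21). By TPM the groups overlapped, up to 5.95 in TAM-MG and from 4.965 in bulk. The fitted call (log2 fold change −3.44, SE 1.05, adjusted p = 0.0187) was lost without WT TAM-MG replicate 74 (adjusted p = 0.0572) and without WT TAM-MG replicate 78 (adjusted p = 0.0649), and within Rheb1 KO libraries (−2.45, adjusted p = 0.234).

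**Figure D2:**
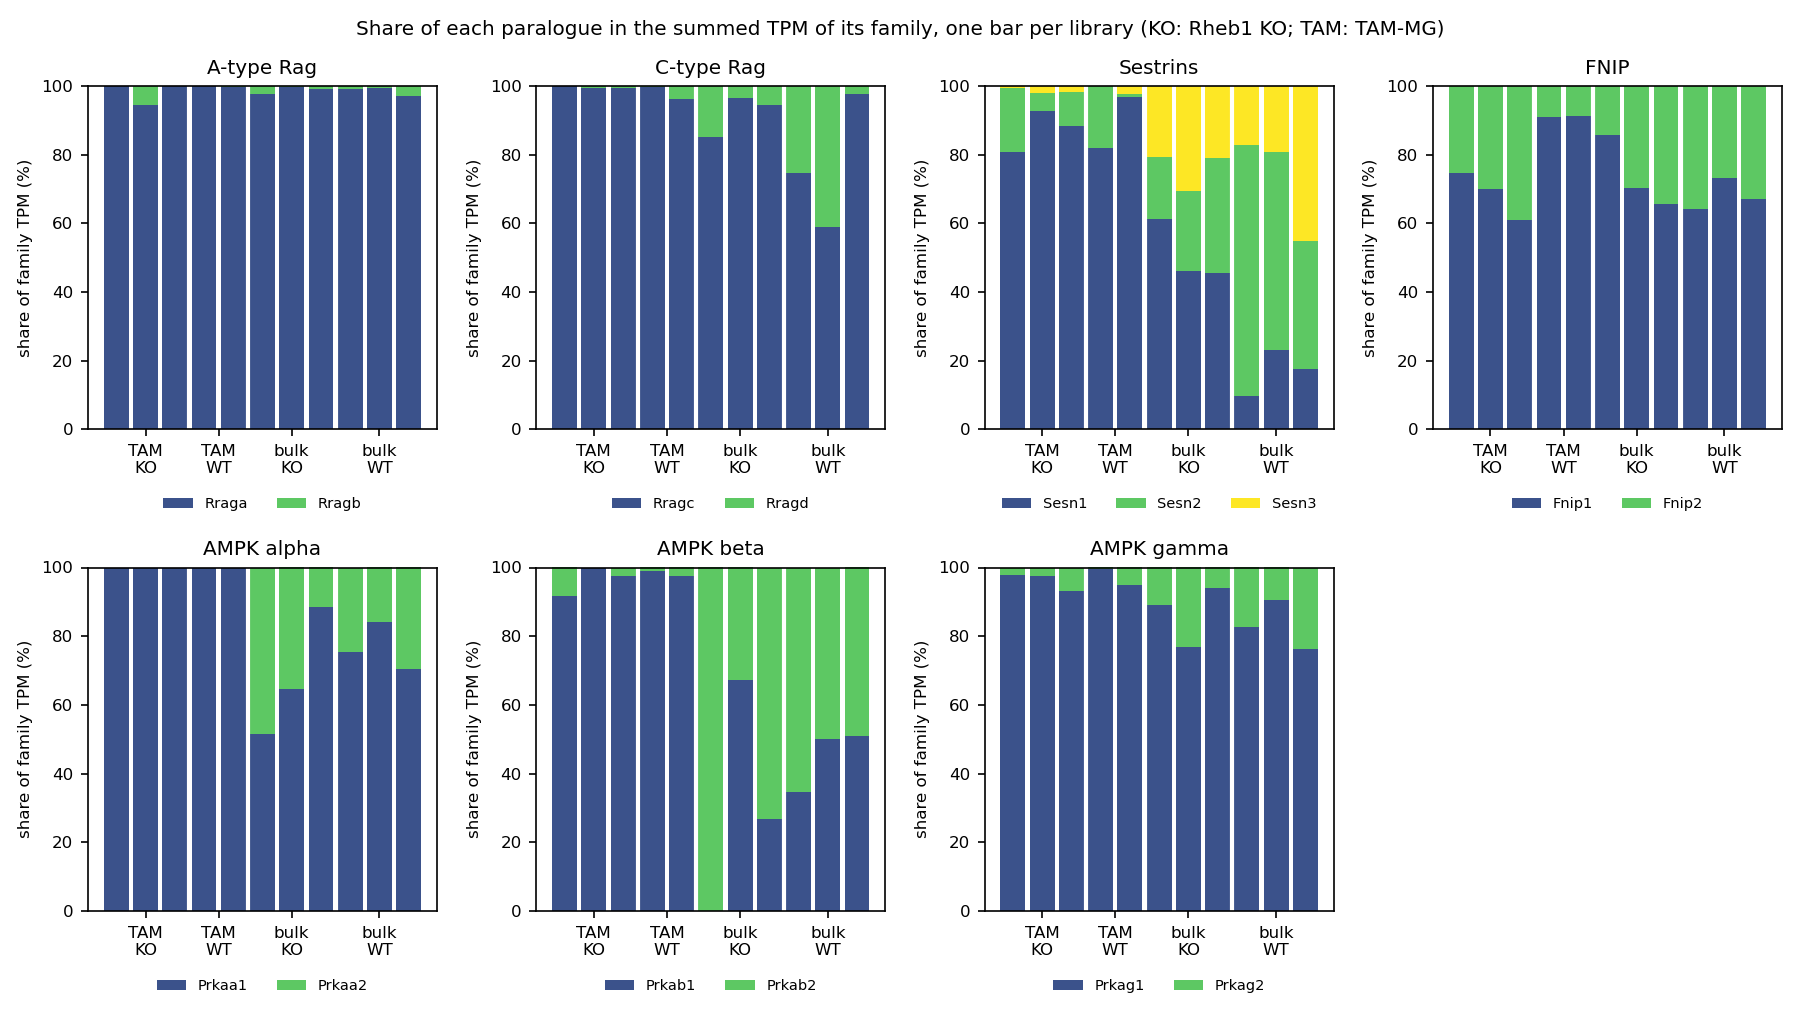
Share of each paralogue in the summed TPM of its family, in percent, with a bar for each library (5 TAM-MG, then 6 bulk). Sesn1 fills 80.8% to 96.9% of the sestrin bars in TAM-MG and 9.66% to 61.3% in bulk, and Prkaa2 reaches at most 0.066% of the alpha bars in TAM-MG, against 11.5% to 48.5% in bulk.

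The dominant beta and gamma subunits were also higher in TAM-MG than in bulk. Prkab1 had 125, 223 and 158 CPM in Rheb1 KO TAM-MG and 76.6 and 76.0 CPM in WT TAM-MG, against 10.5, 58.2 and 19.1 CPM in Rheb1 KO bulk and 23.4, 18.4 and 13.03 CPM in WT bulk (log2 fold change 2.29, SE 0.42, adjusted p = 0.0012). Prkag1 had 198, 104 and 156 CPM in Rheb1 KO TAM-MG and 189 and 166 CPM in WT TAM-MG, against 27.5, 19.4 and 56.2 CPM in Rheb1 KO bulk and 14.3, 49.5 and 15.9 CPM in WT bulk (log2 fold change 2.44, SE 0.42, adjusted p = 0.00076). Neither overlapped between TAM-MG and bulk. Exons of Prkag1 share 43.7% of their bases with the antisense transcript B130046B21Rik, which had 2574, 1306 and 2203 counts in Rheb1 KO TAM-MG and 3413 and 1892 in WT TAM-MG, against 0, 0 and 0 in Rheb1 KO bulk and 0, 17 and 0 in WT bulk. Without strand, reads in the bases that this pair shares cannot be told apart. In Rheb1 KO bulk replicate 26, Prkab1 was listed at 0 TPM although it held 177 counts. Prkaa1 was not called by edgeR between TAM-MG and bulk (log2 fold change 0.67, SE 0.34, adjusted p = 0.114), while limma on TPM called it higher in TAM-MG (1.18 and 1.35, adjusted p = 0.0141 and 0.0181). Not called by edgeR either was Prkag2, the lesser gamma subunit (−0.78, SE 0.72). Stk11, which phosphorylates and activates AMPK, had 62.4, 92.2 and 76.0 CPM in Rheb1 KO TAM-MG and 54.8 and 56.4 CPM in WT TAM-MG, against 12.5, 18.2 and 29.8 CPM in Rheb1 KO bulk and 25.1, 25.6 and 7.01 CPM in WT bulk. By CPM it was higher in every TAM-MG library (log2 fold change 1.73, SE 0.41, adjusted p = 0.0052 by edgeR), while by TPM the groups overlapped. The call was lost with limma on log2(TPM + 1) and log2(TPM + 0.1) (0.62 and 0.64, adjusted p = 0.207 and 0.218) and within WT libraries (1.45, adjusted p = 0.133).

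Between Rheb1 KO and WT, none of the 33 genes passed the threshold in either experiment by edgeR's quasi-likelihood test. In TAM-MG, 30 of the 33 passed the filter on low counts (all but Rragb, Rragd and Prkaa2), and 0 were called by edgeR's quasi-likelihood test, against 0.0% of the 14872 genes tested. At an unadjusted p under 0.05 there were 3 (Nprl3, Prkab1 and Wdr59, all higher), against 7.77% of all genes (5.47% higher and 2.3% lower). Other tests called 1 (edgeR's likelihood ratio test, used in the study), 2 (DESeq2) and 0 (limma). In bulk, all 33 were tested and 0 were called, against 0.0% of 17028 genes. At an unadjusted p under 0.05 there were 2 (Sesn1 higher and Sec13 lower), against 9.0% of all genes (3.82% higher and 5.19% lower). Other tests called 0 (edgeR's likelihood ratio test), 1 (DESeq2) and 0 (limma). The median log2 fold change of the genes tested was 0.18 in TAM-MG, against 0.08 over all genes, and −0.06 in bulk, against 0.00. Replicates varied widely, with a common biological coefficient of variation of 0.992 in TAM-MG and 0.801 in bulk.

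**Figure D3:**
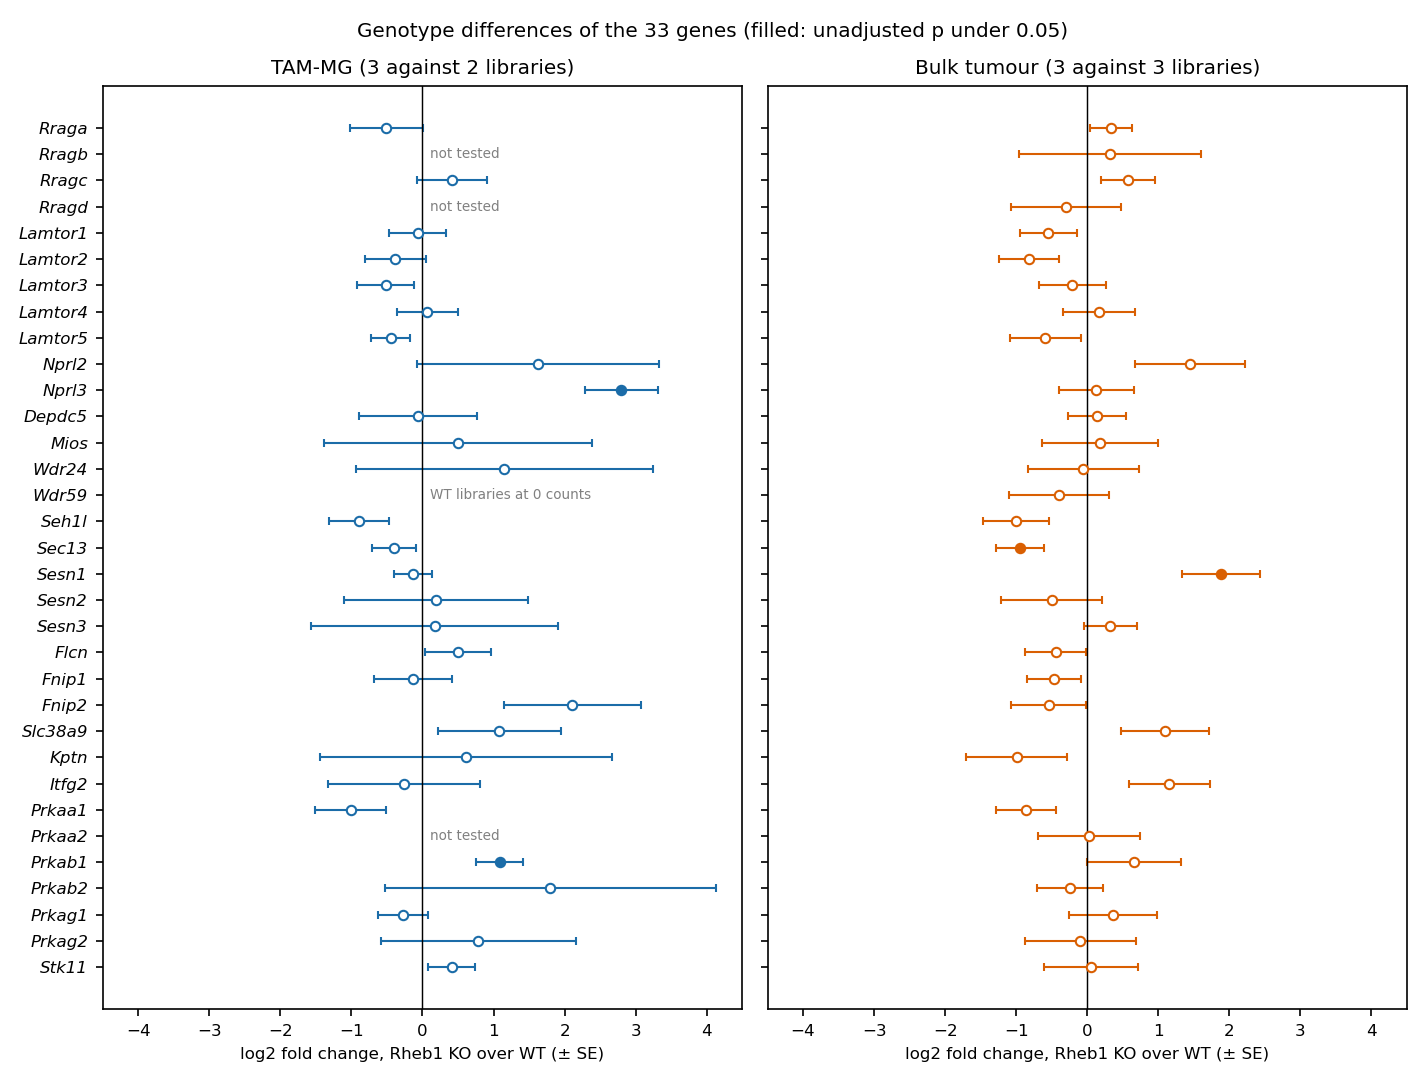
Log2 fold change of Rheb1 KO over WT (± SE) for those of the 33 genes that were tested, in TAM-MG (30) and in bulk (33), with filled points at an unadjusted p under 0.05. Filled points are Nprl3 (2.80) and Prkab1 (1.08) in TAM-MG and Sesn1 (1.89) and Sec13 (−0.95) in bulk. Rragb, Rragd and Prkaa2 were not tested in TAM-MG, and Wdr59 is not drawn there because its WT libraries held 0 counts.

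In bulk, Sesn1 was the gene with the largest fold change. Its 47.0, 27.5 and 29.0 CPM in Rheb1 KO bulk all exceeded the 6.98, 12.3 and 8.45 CPM of WT bulk, a mean of 34.5 ± 10.9 against 9.22 ± 2.72 CPM (SD, n = 3 each), or 3.69-fold (log2 fold change 1.89, SE 0.55, adjusted p = 0.263 by edgeR). The value stayed between 1.60 and 2.11 whichever library was left out, and DESeq2 gave an adjusted p of 0.0312. In TAM-MG the genotypes overlapped (−0.13, SE 0.26), and the difference between the experiments was −1.98 (SE 0.55, adjusted p = 0.228). The share of Sesn1 in the sestrin TPM of bulk, 45.6% to 61.3% in Rheb1 KO and 9.66% to 23.2% in WT, followed the same counts. Sesn1 was higher in the bulk group in which the microglia markers summed to less, and their part in the result was not tested.

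Sec13 ran the other way in bulk, with a mean of 42.3 ± 10.3 CPM in Rheb1 KO and 80.4 ± 6.73 CPM in WT (SD, n = 3 each), 0.519-fold and without overlap (log2 fold change −0.95, SE 0.34, adjusted p = 0.416). Its TAM-MG genotypes overlapped (−0.40, SE 0.31). The microglia markers, which summed to less in Rheb1 KO bulk, moved with Sec13, and their part was not tested. The other GATOR2 gene with a fold change near this size was Seh1l (−1.003, SE 0.47, adjusted p = 0.563 in bulk, and −0.89, SE 0.42, adjusted p = 0.559 in TAM-MG), whose genotypes overlapped in both.

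In TAM-MG, Nprl3 had the smallest p of the 30 genes. Nprl3, the GATOR1 subunit that pairs with Nprl2, had 63.5, 50.4 and 66.5 CPM in Rheb1 KO TAM-MG, against 5.80 and 10.96 CPM in WT TAM-MG, a 6.96-fold higher level with no overlap (log2 fold change 2.80, SE 0.52, adjusted p = 0.502 by edgeR). The likelihood ratio test gave an adjusted p of 0.0063 and DESeq2 one of 7.7e-05, and leaving out a library kept the value between 2.45 and 3.30. In bulk the genotypes overlapped (0.13, SE 0.53), and the difference between the experiments was 2.69 (SE 0.80, adjusted p = 0.258). Exons of Nprl3 share 17.7% of their bases with Mpg, a DNA glycosylase on the opposite strand, and Mpg moved with it: it had 1212, 831 and 974 counts in Rheb1 KO TAM-MG and 176 and 153 in WT TAM-MG, close to the 1139, 1029 and 1294 counts of Nprl3 in Rheb1 KO and its 157 and 171 in WT. Reads in the bases that the pair shares cannot be told apart here. The deposited TPM, estimated per transcript, gave Nprl3 4.98, 7.89 and 10.1 in Rheb1 KO TAM-MG against 0.1001 and 1.88 in WT TAM-MG.

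Prkab1, the AMPK beta 1 subunit, averaged 169 ± 49.7 CPM in Rheb1 KO TAM-MG (SD, n = 3) and 76.3 ± 0.431 CPM in WT TAM-MG (SD, n = 2), a 2.12-fold higher level without overlap (log2 fold change 1.08, SE 0.33, adjusted p = 0.507). In bulk its genotypes overlapped (0.66, SE 0.66, and −1.13 and −2.27 with limma on TPM). Wdr59 had 0, 181 and 521 counts in Rheb1 KO TAM-MG, against 0 and 0 in WT TAM-MG, at least 165-fold higher when the WT group is set to a floor of 3 counts. Replicate 54 of Rheb1 KO was also at 0, and the TPM of Wdr59 differed far less, at 0.720, 1.98 and 4.92 in Rheb1 KO TAM-MG and 0.434 and 0.551 in WT TAM-MG.

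**Figure D4:**
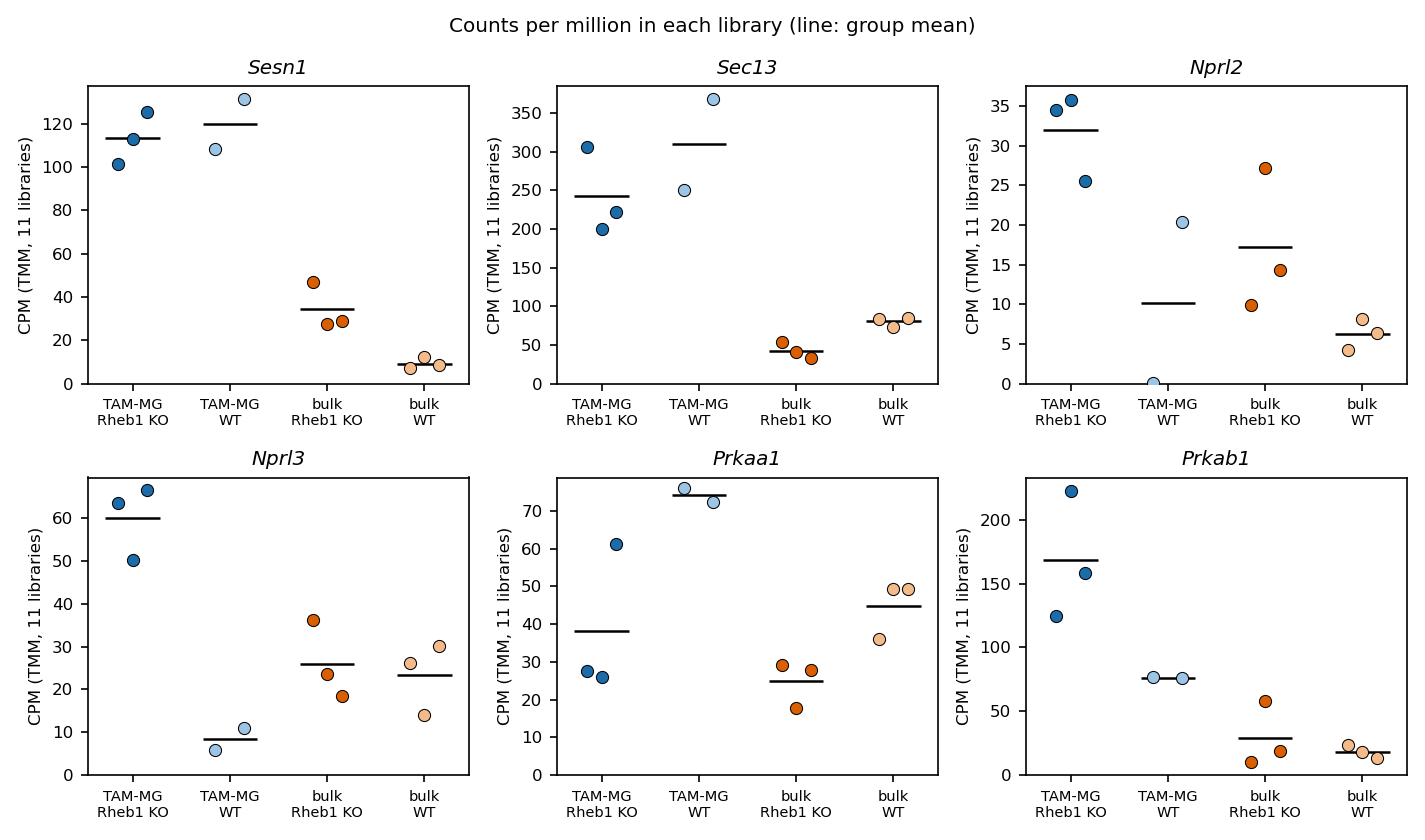
CPM of Sesn1, Sec13, Nprl2, Nprl3, Prkaa1 and Prkab1 in each library, with the group mean as a line. Rheb1 KO libraries lie apart from WT libraries for Sesn1 and Sec13 in bulk, for Nprl3 and Prkab1 in TAM-MG, and for Nprl2 and Prkaa1 in both.

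Groups that did not overlap in CPM were counted as well. In TAM-MG these were 7 of 30 genes, against 26% of all genes tested (14.6% higher and 11.5% lower): Nprl2, Nprl3, Fnip2, Prkab1 and Stk11 were higher in every Rheb1 KO library, and Lamtor5 and Prkaa1 were lower. In bulk they were 5 of 33, against 17.0% of all genes (7.82% higher and 9.23% lower): Nprl2, Sesn1 and Itfg2 were higher, and Sec13 and Prkaa1 were lower. Neither share exceeded that of all genes. By TPM, Itfg2 overlapped in bulk, at 24.6 to 40.8 in Rheb1 KO and 7.82 to 51.2 in WT. Stk11 overlapped by TPM in TAM-MG, at 44.75 to 100.2 in Rheb1 KO and 40.0 to 45.4 in WT. By CPM, Nprl2 was higher and Prkaa1 lower in both experiments. The TPM of Prkaa1 overlapped in TAM-MG, at 4.18 to 11.5 in Rheb1 KO and 11.2 to 17.5 in WT. Of the 12667 genes tested in both, 1.1% lay apart and higher in both and 1.26% lay apart and lower in both.

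Nprl2, the catalytic subunit of GATOR1, had 34.5, 35.7 and 25.5 CPM in Rheb1 KO TAM-MG, against 0.0739 and 20.3 CPM in WT TAM-MG, and 9.91, 27.2 and 14.4 CPM in Rheb1 KO bulk, against 4.24, 8.17 and 6.34 CPM in WT bulk. The log2 fold changes were 1.62 (SE 1.70, adjusted p = 0.903) in TAM-MG and 1.44 (SE 0.77, adjusted p = 0.634) in bulk. The TAM-MG value depended on WT replicate 74, which held 2 counts, and leaving out a library moved it between 0.64 and 8.57. Prkaa1, the catalytic AMPK alpha 1 subunit, had 27.5, 25.98 and 61.2 CPM in Rheb1 KO TAM-MG, against 76.0 and 72.4 CPM in WT TAM-MG, and 29.2, 17.8 and 27.8 CPM in Rheb1 KO bulk, against 35.97, 49.4 and 49.4 CPM in WT bulk. Its log2 fold changes were −1.01 (SE 0.49, adjusted p = 0.591) in TAM-MG and −0.86 (SE 0.42, adjusted p = 0.588) in bulk, and they stayed negative in every fit that left out a library.

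By role, the 5 Ragulator genes had negative fold changes for genotype in 4 cases in each experiment, with medians of −0.38 in TAM-MG and −0.55 in bulk, and 0 called. All 3 folliculin complex genes were negative in bulk (−0.54 to −0.45), while in TAM-MG Fnip2 had 2.11 (SE 0.96, adjusted p = 0.552), Flcn 0.50 and Fnip1 −0.14. For Fnip2 the difference between the experiments was 2.69 (SE 1.01, adjusted p = 0.339). The tested Rag genes had values of −0.51 to 0.41 in TAM-MG and −0.30 to 0.57 in bulk. Slc38a9 had 1.08 (SE 0.87, and −0.06 and −0.10 with limma on TPM) in TAM-MG and 1.09 (SE 0.63) in bulk, and Stk11 had 0.41 (SE 0.33) in TAM-MG and 0.05 (SE 0.66) in bulk, where it was −0.03 with library sizes alone. The interaction of genotype and experiment called 0 of the 33 genes by edgeR's quasi-likelihood test, against 0.225% of 21342 genes, with 4 at an unadjusted p under 0.05 (Sesn1, Nprl3, Fnip2 and Wdr59), against 12.2% of all genes. The likelihood ratio test called 2 of the 33 there (Sesn1 and Wdr59), DESeq2 called these and also Nprl3 and Fnip2, and limma called 0.

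Other genes of the pathway, taken from a list of 18 (17 tested in at least 1 comparison), were examined the same way. Between genotypes, 0 of 15 were called in TAM-MG and 0 of 16 in bulk. At an unadjusted p under 0.05 by edgeR there were 1 in TAM-MG and 4 in bulk, against 7.77% and 9.0% of all genes. The STRAD pseudokinase Strada, which activates LKB1, had a log2 fold change of 3.09 (SE 0.59, adjusted p = 0.502) in TAM-MG, with 1185, 1055 and 1283 counts in Rheb1 KO and 108 and 156 in WT. The arginine sensor Castor1 had 2.34 (SE 0.80, adjusted p = 0.378) in bulk, with 765, 133 and 586 counts in Rheb1 KO and 91, 104 and 139 in WT, the groups overlapping. The others in bulk were Slc36a1 (1.46, SE 0.61), Lars (−1.15, SE 0.38) and Cab39 (0.75, SE 0.29). Cab39 had 226, 184 and 143 CPM in Rheb1 KO bulk, against 97.9, 113 and 114 CPM in WT bulk. For TAM-MG over bulk, 3 of 17 were called higher and 6 lower, against 20.5% and 32.4% of all genes. Slc3a2 and Slc7a5 encode the heavy and light chains of a leucine transporter, and they parted: Slc3a2 was higher in TAM-MG (log2 fold change 2.28, SE 0.20, adjusted p = 9.2e-06) and Slc7a5 lower (−2.75, SE 0.44, adjusted p = 0.00052). Among the transcription factors that the Rags control, Mitf was higher in TAM-MG than in bulk (2.11, SE 0.66, adjusted p = 0.0202). Tfe3 had 2419, 3307 and 2737 counts in Rheb1 KO TAM-MG, against 1378 and 203 in WT TAM-MG (log2 fold change 2.11, SE 0.63, adjusted p = 0.506).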

How the data were processed

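The deposited gene counts were made by the authors with STAR and the deposited TPM values with Salmon, summed to genes, both on GRCm38 (Ensembl release 90); tool versions are not given in the sources used here. Libraries were SmartSeq2 with Nextera XT, without strand. The bulk TPM table held 12719 genes and its columns did not sum to the full scale of TPM. Total rows in the TAM-MG tables were left out. Of 50686 gene identifiers, 99.4% had a symbol, and all 33 members matched. The tests on counts used the quasi-likelihood method of edgeR 4.0.16 (R 4.3.3, TMM scaling, filterByExpr with at least 10 counts and 15 in total), with Benjamini-Hochberg adjustment over all genes tested. Calls required both a fold of at least 1.5 and an adjusted p below 0.05. Genotypes were compared within each experiment, and TAM-MG with bulk, and the interaction, over 11 libraries in 4 groups. Results given as by edgeR are those of the quasi-likelihood test. Alternatives were the study's likelihood ratio test (also run in edgeR), DESeq2 1.42.0, limma 3.58.1 on log2(TPM + 1) and log2(TPM + 0.1), other scalings and filters, and leaving out each library. The fits were tested on simulated data. Each library is a mouse.

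Values in every library are given for genes called in a comparison, genes with an unadjusted p under 0.05 between genotypes or in the interaction, genes whose genotypes lay apart in both experiments, and the highest and lowest gene of each role by TPM; Wdr24, Seh1l, Lamtor4, Sesn2 and Prkag2 are given by their fitted values or counts. No measured value enters the rule for the members, but the set and the gene lists were drawn up with earlier results of these data known. Intervals of pooled counts are exact at 95% and cover counting error only.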

Additional observations from a re-analysis of the deposited data

How the results depend on the processing

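No paired analysis was possible because the replicate numbers are mouse numbers that the genotypes do not share. No gene called by edgeR changed direction. For TAM-MG over bulk, 27 of 683 values of the 33 genes under the alternatives changed sign, in 10 genes, none of them called. Turned values were −0.14 (Slc38a9), −0.18 (Wdr24) and −0.087 (Seh1l) with library sizes alone, 0.0103 (Rragc) and 0.0078 (Kptn) with upper quartile factors, 0.0020 (Rragc) without a filter, 1.38 (Depdc5) and −0.58 (Wdr24) with limma on log2(TPM + 1), 1.72 (Depdc5), −0.60 (Nprl2) and −1.35 (Wdr24) on log2(TPM + 0.1), 1.17 (Nprl3), 0.31 (Sesn2) and 0.74 (Kptn) within Rheb1 KO libraries and −0.22 (Wdr24) within WT libraries. Leaving out a library gave −0.36 to 0.10 (Rragc), −2.84 to 1.16 (Nprl2), −4.81 to 1.42 (Mios), −5.12 to 0.82 (Wdr24), −1.71 to 0.28 (Sesn2), −0.44 to 0.71 (Slc38a9) and −5.44 to 0.34 (Kptn), with the lowest value without WT TAM-MG replicate 74 for Mios and Sesn2 and without WT TAM-MG replicate 78 for the others. With library sizes alone GATOR2 had 2 positive and 3 negative values in place of 4 and 1, and with limma and within WT libraries 3 and 2. The median of the 33 (0.46) was −0.18 with library sizes alone, −0.02 within WT libraries, −0.01 with limma on log2(TPM + 0.1) and −0.44 without WT TAM-MG replicate 78. Over all genes the median (−0.89) was −1.45, −0.84, −0.53 and −1.71 under those settings. Between genotypes in bulk, 39 of 495 values changed sign, among them Prkab1 (−1.13 and −2.27 with limma at a pseudocount of 1 and 0.1) and Stk11 (−0.15 with either, −0.034 with library sizes alone), and leaving out a library gave −0.18 to 0.34 (Nprl3), −0.060 to 0.35 (Depdc5), −0.32 to 1.06 (Prkab1) and −0.36 to 0.31 (Stk11). In TAM-MG, 23 of 409 did, among them Slc38a9 (−0.063 and −0.10 with limma) and Depdc5 (0.0026 with all 11 libraries in one fit), leaving out a library gave −0.51 to 0.39 (Depdc5) and −0.63 to 0.67 (Fnip1), and the median (0.18) was −0.06 without WT replicate 74 and with at least 10 counts in each library. For the interaction, 62 of 617 values changed sign, none of Sesn1, Nprl3, Fnip2 and Wdr59. In bulk, DESeq2 called 1 of the 33 genes between genotypes in place of 0; over all genes the count of 0 became 383 with the likelihood ratio test, 474 with DESeq2, 102 without a filter, 62 where each library had to hold at least 10 counts, 1 with limma at either pseudocount and 18 with all 11 libraries in one fit, and 0 to 8 on leaving out a library (8 without Rheb1 KO replicate 37). In TAM-MG, the likelihood ratio test called 1 of the 30 genes tested and DESeq2 called 2; over all genes the count of 0 became 245, 477 and, with all 11 libraries in one fit, 65, and stayed at 0 on leaving out a library. For TAM-MG over bulk, the 19 calls became 12 under that minimum, 12 within Rheb1 KO libraries and 11 within WT libraries, and 12 to 18 on leaving out a library (12 without WT TAM-MG replicate 74); over all genes 11283 became 4571, 6789 and 6403 under those settings, 7263 and 7137 with limma at a pseudocount of 1 and 0.1, and 8314 to 10936 on leaving out a library. For the interaction, the likelihood ratio test called 2 and DESeq2 4 of the 33 genes, and leaving out a library gave 0 to 3 (3 without WT TAM-MG replicate 78); over all genes 48 became 835, 1206, 8 with upper quartile factors, 76 without a filter, 3 with the minimum of 10 counts per library, 16 with limma at a pseudocount of 1, and 1 to 361 on leaving out a library (361 without WT TAM-MG replicate 78). Apart from counts that follow from fewer genes or libraries, the cause was not tested. With 2 WT TAM-MG libraries, leaving out either left a lone library that was assumed to vary like the others.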
